A study of Mus musculus with 4 samples.

Results

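The β-catenin machinery was described in WT and Haspin-KO mouse embryonic stem cells (mESCs) through transcripts of 10 genes of canonical Wnt signaling. Some encode parts of the pathway and some are its targets, and neither its activity nor any protein was measured in these libraries. The genes were Ctnnb1, Apc, Axin1, Axin2, Lef1, Tcf7, Tcf7l1, Tcf7l2, Sp5 and Nkd1. They were taken as the rows of the deposited table with these gene symbols, and 10 of the 55401 genes in the table were found in this way. Of the 15580 genes that passed the filter on low counts, all 10 were part of the test.

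RNA was sequenced from 4 libraries of E14, an established mESC line, with 2 libraries of genotype WT and 2 of genotype Haspin knockout. No treatment separated the groups, and the paper's general culture medium for E14 cells held serum, Lif and 2i. The 2i medium holds the MEK inhibitor PD0325901 and CHIR99021, an inhibitor of Gsk3, which is a kinase of the destruction complex. The paper's RNA-seq methods name no medium. If the general medium was used, Gsk3 was targeted in both groups, and this was not tested. The Haspin-KO lines came from co-transfection of a pair of guide RNAs, followed by puromycin and by selection of single clones that lacked phosphorylation of histone H3 at threonine 3. The paper describes no such steps for WT, so genotype cannot be told apart here from clonal origin and selection. The labels do not say which line each library came from, nor whether the libraries of a group were separate cultures, so p-values measure the spread between these libraries, which may be technical. Cells were kept on mouse embryonic fibroblast feeders for passage or on gelatin for assays, and which of them applied to the RNA is not given in the sources used here.

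In canonical Wnt signaling, cytoplasmic β-catenin is held by a destruction complex built on the scaffolds Axin and Apc, in which the kinases Ck1 and Gsk3 mark it for ubiquitination and degradation. When a Wnt ligand or a Gsk3 inhibitor blocks this step, β-catenin enters the nucleus and binds TCF/LEF factors on DNA. Target genes are then transcribed, and several of them, such as Axin2 and Nkd1, encode inhibitors that close a negative feedback loop. In mESCs, Tcf7l1 (also named Tcf3) acts mainly as a repressor of pluripotency genes, and relief of this repression is a well known route by which CHIR99021 supports self-renewal.

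The Haspin transcript checked the labels. Its level was 40.1 and 35.7 CPM (counts scaled to a common library size by TMM) in the WT libraries and 10.4 and 14.6 CPM in the Haspin-KO libraries. The log2 fold change (Haspin-KO over WT) was -1.60 (SE 0.16, adjusted p = 0.00154 edgeR's quasi-likelihood test, Benjamini-Hochberg adjusted over all genes tested). Library totals were 21834847 and 17452307 counts in WT and 14207828 and 14436750 counts in Haspin-KO. The 8 embryonic stem cell markers, among them Pou5f1, Dppa5a and Nanog, had sums of 4719 and 4810 CPM in the WT libraries and of 4352 and 4409 CPM in the Haspin-KO libraries. At adjusted p under 0.05, 0 of the 8 were called, beside 2.50% of all genes in either direction. At an unadjusted p under 0.05, 2 were lower, beside 20.8% of all genes in either direction. Markers of fibroblasts, the feeder cell type, differed between the groups: the sum over 17 genes was 237.9 and 180.9 CPM in the WT libraries against 46.1 and 47.6 CPM in the Haspin-KO libraries, a ratio of 4.47. Of the 13 tested, 9 were called lower in Haspin-KO at adjusted p under 0.05 and 0 higher, beside 1.51% of all genes called lower. The log2 fold change was under 0 for 12 of the 13 and above 0 for 1. In 4 of the 17 (Postn, S100a4, Dcn and Twist2) there were counts in WT and none in either Haspin-KO library. Postn had 171 and 77 counts in WT and S100a4 had 22 and 9, but Dcn and Twist2 had only 1 to 4 counts, and Lum had no count in any library. The 8 markers of 2-cell-like cells had sums of 42.8 and 36.9 CPM in the WT libraries and of 107.2 and 86.1 CPM in the Haspin-KO libraries. Of the 6 tested, 3 were called higher at adjusted p under 0.05, beside 2.50% of all genes called in either direction, and all 6 had a log2 fold change above 0.

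TCF/LEF factors bind short DNA motifs, so the sequence in front of the feedback targets is shown before their levels. The 250 bases before the RefSeq start (GRCm38.p6) of Axin2, the most widely used feedback reporter of the pathway, and of Sp5, a zinc finger factor induced by β-catenin, are given below from 5′ to 3′. Capitals mark CTTTGAT or CTTTGAA, the core TCF/LEF motifs searched on both strands. Axin2 lies on the plus strand at chr11:108920099-108920348 and Sp5 on the plus strand at chr2:70474673-70474922, and both stretches end at the base before the start that the deposited table lists for the gene. A shorter window is shown for T (chr17:8434177-8434205, plus strand), another Wnt target with a match, which carries the reverse complement of CTTTGAA.
Axin2: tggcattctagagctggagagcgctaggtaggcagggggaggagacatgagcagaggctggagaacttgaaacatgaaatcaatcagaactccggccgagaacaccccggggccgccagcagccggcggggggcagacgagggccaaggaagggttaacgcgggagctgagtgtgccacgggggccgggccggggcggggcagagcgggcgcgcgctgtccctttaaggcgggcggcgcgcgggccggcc
Sp5: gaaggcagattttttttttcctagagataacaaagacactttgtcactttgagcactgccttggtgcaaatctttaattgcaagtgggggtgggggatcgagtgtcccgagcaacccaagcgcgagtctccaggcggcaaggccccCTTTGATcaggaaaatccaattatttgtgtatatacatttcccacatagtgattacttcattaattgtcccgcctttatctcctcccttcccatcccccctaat
T: ctgctcggtacTTCAAAGggtgtcccgcc

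The stretches before Axin2 and Sp5 had different base composition. GC content was 69.2% with 24 CG dinucleotides for Axin2 and 46% with 6 CG dinucleotides for Sp5, beside medians of 52.4% and 6 over all RefSeq windows. In windows of 300 bases (250 before to 50 after the start), 8 of the 10 members had an entry, with 14 windows, and 1 of the 8 genes held a match: the CTTTGAT of Sp5, whose first base lies 104 bases before the start. Over all RefSeq windows, 9.88% of 27025 genes and 8.65% of 32851 windows held a match. Of the 17 other Wnt feedback and direct target genes described below, 9 had an entry and 4 held a match, namely Sp8, Tnfrsf19, T and Dkk1, with first bases 51, 202, 235 and 117 bases before their RefSeq starts. The RefSeq start of T is also the start that the deposited table gives, whereas the windows with a match in Sp8, Tnfrsf19 and Dkk1 belong to RefSeq starts 904, 8503 and 169 bases from the start in the table, and those matches lie inside the gene as the table lists it. These matches describe letters in a window of this length, and no binding was measured here.

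Levels of different genes were compared by the deposited FPKM, which is per length of transcript. Ctnnb1, which encodes β-catenin, had the highest level of the 10 genes, at 164.9 and 160.8 FPKM in WT and 166.5 and 165.8 FPKM in Haspin-KO, and its mean over the 4 libraries lay at the 98.5th percentile of the genes tested. Tcf7l1 followed with a mean of 26.3 FPKM, then Tcf7 with 20.3, Axin1 with 18.5, Apc with 14.3, Sp5 with 13.8 and Axin2 with 12.1 FPKM. Nkd1, Tcf7l2 and Lef1 were lower, with means of 0.933, 0.890 and 0.250 FPKM, and Lef1 lay at the 5.28th percentile. Of the 9 pairs of neighbours in this order, 5 had ranges over the 4 libraries that did not overlap. The pairs that did overlap were Tcf7 with Axin1, Apc with Sp5, Sp5 with Axin2, and Nkd1 with Tcf7l2. The range from Ctnnb1 to Lef1 was far wider than any difference between the genotypes for 1 of these genes.

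**Figure D1:**
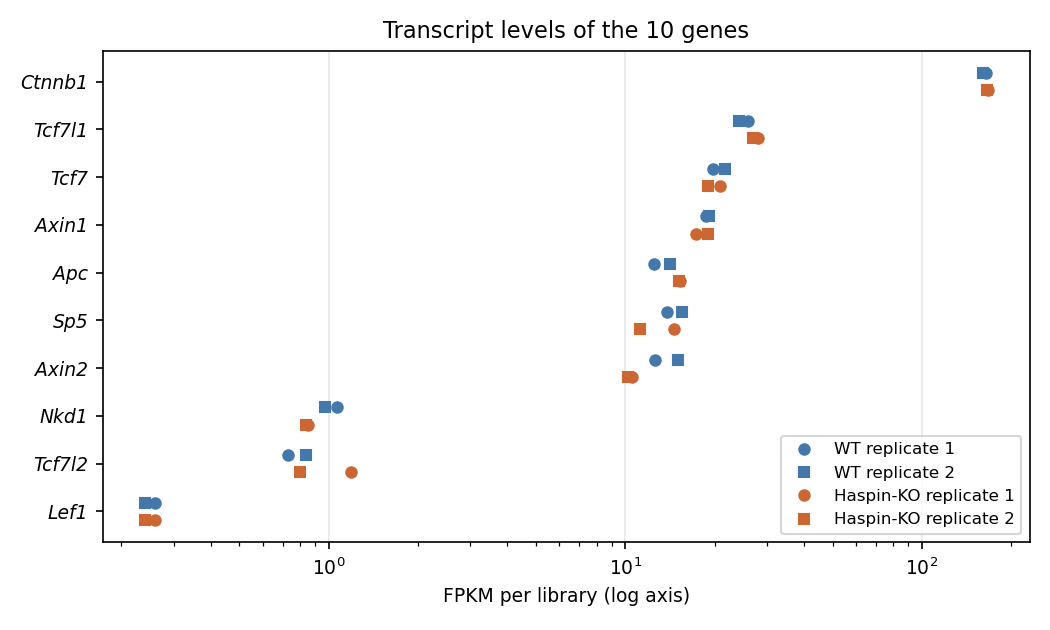
FPKM of the 10 genes (log axis) in each of the 4 libraries, with WT and Haspin-KO in separate colours. Ctnnb1 sits near 164.5 FPKM, Nkd1, Tcf7l2 and Lef1 sit under 1.2 FPKM, and points of the 2 genotypes lie close together for every gene.

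Between the genotypes, 0 of the 10 genes passed adjusted p under 0.05 in edgeR, beside 2.50% of all genes tested, and so 0 were DEGs with a fold change over 2, beside 0.828%. At an unadjusted p under 0.05, Apc was higher and Axin2 lower in Haspin-KO, that is 2 of 10, beside 20.8% of all genes. DESeq2 called 1 of the 10, Axin2, among 473 genes that it called of 28670 in its fit. Limma on FPKM called 0 of the 9 it tested, with 1 at an unadjusted p under 0.05. It called 0 of all genes, and even Haspin had a limma adjusted p of 0.115 or 0.102, so its lack of calls cannot tell about the members. Both Haspin-KO libraries lay above both WT libraries for 2 genes, Apc and Tcf7l1, beside 25.3% of all genes, and below them for 2 genes, Axin2 and Nkd1, beside 26.9%. The other 6 overlapped. The median log2 fold change of the 10 was -0.027, with 5 above 0 and 5 below, and that of all genes tested was -0.0039. For none of the 10 did the 95% interval reach a 2-fold change in either direction, and for 6 it lay within 1.5-fold.

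**Figure D2:**
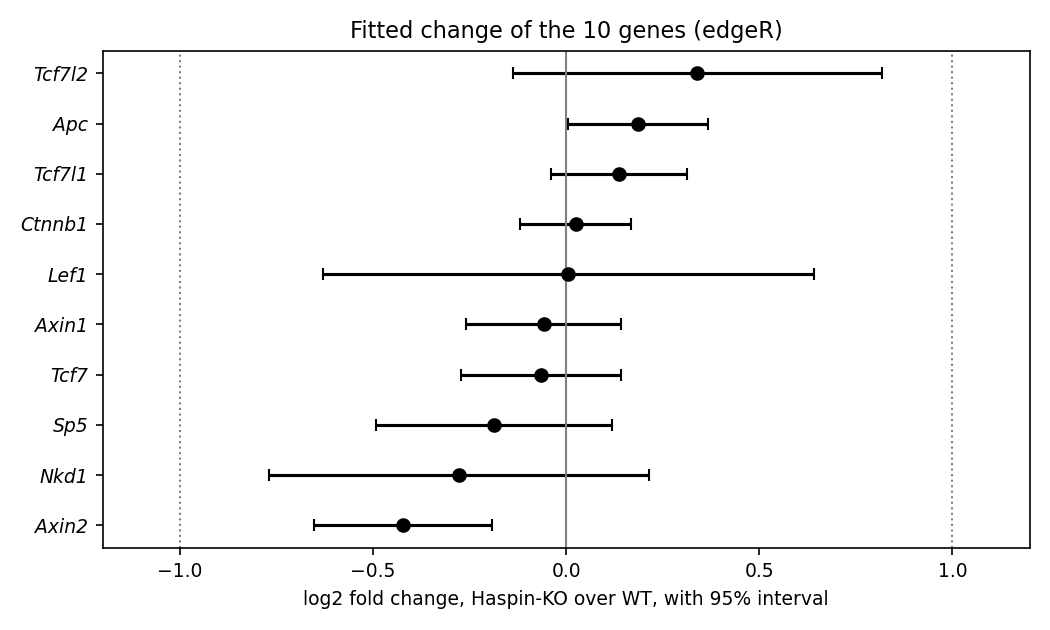
Log2 fold change (Haspin-KO over WT) of the 10 genes with 95% intervals from edgeR, with dotted lines at a 2-fold change. Axin2 has the lowest value at -0.42 and Tcf7l2 the highest at 0.34, and no interval reaches a dotted line.

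Among the parts of the destruction complex and its substrate, the level of Ctnnb1 itself was 855.7 and 840.6 CPM in WT and 855.4 and 870.4 CPM in Haspin-KO. These values overlapped, and the log2 fold change was 0.025 (95% interval -0.12 to 0.17, edgeR adjusted p = 0.862), from 12285 to 18694 counts per library. Apc, the large scaffold that holds β-catenin in the complex, had 201.8 and 230.0 CPM in WT and 243.4 and 247.8 CPM in Haspin-KO. Both Haspin-KO libraries were above both WT libraries, by a log2 fold change of 0.19 (95% interval 0.0055 to 0.37, edgeR adjusted p = 0.228), which did not pass the test. It moved to 0.090 without WT replicate 1 and to 0.28 without WT replicate 2. Axin1, the scaffold made in most cells regardless of signaling, had 71.3 and 73.8 CPM in WT and 65.7 and 73.6 CPM in Haspin-KO. Its groups overlapped, with a log2 fold change of -0.059 (95% interval -0.26 to 0.14, edgeR adjusted p = 0.752). The table places Ctnnb1 (ENSMUSG00000006932) at chr9:120929216-120960507, Apc (ENSMUSG00000005871) at chr18:34220924-34322552 and Axin1 (ENSMUSG00000024182) at chr17:26138688-26195811, all on the plus strand of mm10.

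The other 17 genes of the destruction complex and its regulators gave a similar count. All 17 were tested and 0 were called, beside 2.50% of all genes in either direction. At an unadjusted p under 0.05, 3 were higher and 1 lower, beside 20.8% of all genes in either direction. Their median log2 fold change was 0.11 with a range from -0.26 to 0.27. Csnk1a1, the Ck1α kinase that primes β-catenin for Gsk3, had 378.1 and 381.0 CPM in WT and 460.4 and 437.2 CPM in Haspin-KO, a log2 fold change of 0.24 (SE 0.067, edgeR adjusted p = 0.0898). Usp7, a deubiquitinase, had 568.6 and 581.7 CPM in WT and 683.0 and 656.9 CPM in Haspin-KO, a log2 fold change of 0.22 (SE 0.066, edgeR adjusted p = 0.108). Btrc, the F-box protein that recognises phosphorylated β-catenin, had 61.8 and 56.5 CPM in WT and 50.1 and 48.5 CPM in Haspin-KO, a log2 fold change of -0.26 (edgeR adjusted p = 0.143). None of these 3 genes passed the test. They were named for having the smallest p of the list, so the lack of overlap between their groups adds nothing. Over the list, both Haspin-KO libraries lay above both WT libraries for 7 of the 17 and below them for 4, beside 25.3% and 26.9% of all genes.

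The 4 TCF/LEF factors bind the same motif and differ in whether they mostly repress or activate. Tcf7l1 had 101.4 and 95.2 CPM in WT and 109.1 and 107.0 CPM in Haspin-KO, with both Haspin-KO libraries higher and a log2 fold change of 0.14 (95% interval -0.040 to 0.31, edgeR adjusted p = 0.353). Tcf7 (also named Tcf1), which acts mainly as an activator with β-catenin, had 59.6 and 66.1 CPM in WT and 62.1 and 57.9 CPM in Haspin-KO. These overlapped, with a log2 fold change of -0.065 (95% interval -0.27 to 0.14, edgeR adjusted p = 0.732). Tcf7l2 (also named Tcf4), the main factor of the intestinal epithelium, had 6.50 and 7.50 CPM in WT and 10.4 and 7.21 CPM in Haspin-KO. The first Haspin-KO library stood above the other 3, whose values lay close together, and the log2 fold change was 0.34 (95% interval -0.14 to 0.82, edgeR adjusted p = 0.394). Leaving out each library in turn moved it between 0.050 and 0.58, with 0.050 without Haspin-KO replicate 1. Lef1, which mostly activates and is itself a Wnt target in many tissues, had 49 and 37 counts in WT and 32 and 31 counts in Haspin-KO, or 2.24, 2.13, 2.23 and 2.17 CPM. Its log2 fold change was 0.0054, but the 95% interval from -0.63 to 0.64 was the widest of the 10 genes, so that a 1.5-fold change in either direction was not detectable at this depth. In mm10, Tcf7l1 (ENSMUSG00000055799, chr6:72626378-72789254) and Tcf7 (ENSMUSG00000000782, chr11:52252371-52283331) lie on the minus strand, and Tcf7l2 (ENSMUSG00000024985, chr19:55741820-55933654) and Lef1 (ENSMUSG00000027985, chr3:131110471-131224356) on the plus strand.

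Each factor's share of the summed FPKM of the 4 factors describes the makeup of the family within a library, and this does not depend on scaling between libraries. Tcf7l1 held 55.5% and 51.4% in WT and 55.8% and 57.4% in Haspin-KO, and Tcf7 held 42.4% and 46.3% in WT and 41.3% and 40.4% in Haspin-KO. Both Haspin-KO libraries were above both WT libraries for the share of Tcf7l1 and below them for that of Tcf7. The CPM of 25.3% and 26.9% of all genes did so, but no such background was made for shares, and by CPM the groups of Tcf7 overlapped. These 2 factors make up nearly all of the sum, so their 2 shares and their ratio are not separate results. The mean differences in share were 3.18 percentage points for Tcf7l1 and -3.52 for Tcf7. Their size depended on the WT libraries, with 1.12 and -1.54 percentage points without WT replicate 2 and 5.25 and -5.49 without WT replicate 1. Tcf7l2 held 1.57% and 1.79% in WT and 2.36% and 1.70% in Haspin-KO. Lef1 held 0.558% and 0.511% in WT and 0.516% and 0.511% in Haspin-KO. The ratio of Tcf7l1 to Tcf7 was 1.31 and 1.11 in WT and 1.35 and 1.42 in Haspin-KO. With 2 libraries a group, an exact two-sided permutation test cannot give a p below 0.333, so no test was made. The summed FPKM of the 4 factors was 46.6 and 46.9 in WT and 50.4 and 47.0 in Haspin-KO.

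**Figure D3:**
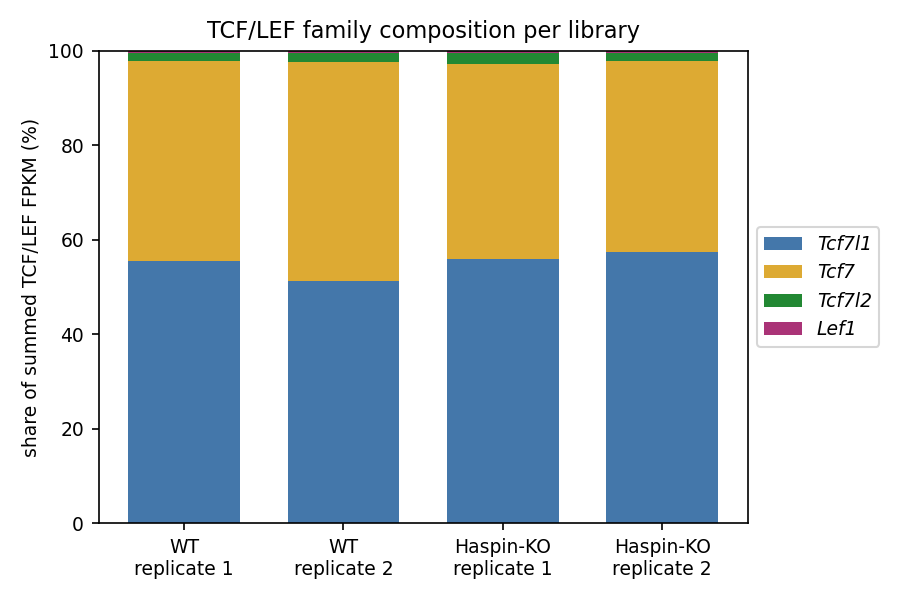
Share of the summed FPKM of Tcf7l1, Tcf7, Tcf7l2 and Lef1 in each of the 4 libraries, as stacked bars from 0 to 100%. Tcf7l1 makes up 51.4% to 57.4% and Tcf7 40.4% to 46.3%, and Lef1 and Tcf7l2 together form a thin band in every library.

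The 19 nuclear partners of β-catenin and TCF/LEF include the Bcl9 and Pygo coactivators and the Tle corepressors. All 19 were tested and 0 were called, beside 2.50% of all genes in either direction. At an unadjusted p under 0.05, 3 were higher and 1 lower, beside 20.8% of all genes in either direction. Their median log2 fold change was 0.034 with a range from -0.38 to 0.34. Tbl1xr1, a subunit of corepressor complexes that also binds β-catenin, had 73.0 and 76.7 CPM in WT and 97.0 and 92.7 CPM in Haspin-KO, a log2 fold change of 0.34 (SE 0.081, edgeR adjusted p = 0.0597). Tle1, a Groucho corepressor that binds TCF/LEF factors, had 33.0 and 30.4 CPM in WT and 39.4 and 39.8 CPM in Haspin-KO, a log2 fold change of 0.32 (SE 0.098, edgeR adjusted p = 0.114). Crebbp, a histone acetyltransferase recruited by β-catenin, had 67.6 and 85.3 CPM in WT and 86.1 and 100.02 CPM in Haspin-KO, with an edgeR adjusted p of 0.219. None of these 3 passed the test. They too were named for having the smallest p of the list, so the lack of overlap between their groups adds nothing. Over the list, both Haspin-KO libraries lay above both WT libraries for 3 of the 19 and below them for 5, beside 25.3% and 26.9% of all genes.

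The 6 genes known to be repressed by Tcf7l1 in mESCs, of which Nanog is also one of the embryonic stem cell markers above, lay close to 0. All 6 were tested and 0 were called, beside 2.50% of all genes. At an unadjusted p under 0.05 there were 0, beside 20.8% of all genes. The log2 fold changes ran from -0.10 to 0.066 around a median of -0.034. The 3 with the smallest p were Nanog at -0.10 (edgeR adjusted p = 0.565), Tfcp2l1 at 0.055 (adjusted p = 0.688) and Esrrb at -0.058 (adjusted p = 0.725), all of them factors of the naive pluripotency network. Of the 6 junction partners, which bind β-catenin or its relatives at the cell membrane, 5 were tested and 0 were called, beside 2.50% of all genes. At an unadjusted p under 0.05 there were also 0, beside the same 20.8% of all genes. Cdh1, the E-cadherin that binds β-catenin at adherens junctions, had 968.9 and 926.0 CPM in WT and 938.3 and 851.0 CPM in Haspin-KO, a log2 fold change of -0.083 (edgeR adjusted p = 0.553). Ctnnd1 and Ctnna1, which encode p120 and α-catenin, had log2 fold changes of 0.083 and 0.056 (edgeR adjusted p = 0.628 and 0.662).

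Axin2, Nkd1 and Sp5, the 3 members grouped here as feedback targets, had the lowest fold changes of the 10 genes in this fit. Lef1, named above as a Wnt target in many tissues, was at 0.0054. Axin2, the inducible paralog of Axin1 (ENSMUSG00000000142, chr11:108920349-108950783, plus strand), had 69.4 and 83.7 CPM in WT and 57.2 and 56.9 CPM in Haspin-KO, from 812 to 1517 counts per library. Neither Haspin-KO value reached the lower WT value, and the WT libraries differed from each other by more than the Haspin-KO libraries did. The level in Haspin-KO was 0.746 of that in WT, a log2 fold change of -0.42 (SE 0.10, 95% interval -0.65 to -0.19, unadjusted p = 0.00241, edgeR adjusted p = 0.0650). This missed the threshold, and the call depended on the setting: DESeq2 gave -0.43 with an adjusted p of 0.0369, and over 11 alternatives without a replicate term the adjusted p ran from 0.00335 to 0.246. The call was made without Haspin-KO replicate 1 (adjusted p = 0.0285) or Haspin-KO replicate 2 (adjusted p = 0.0442), but not without WT replicate 1 (-0.56, adjusted p = 0.055) or WT replicate 2 (-0.28, adjusted p = 0.246).

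Sp5, whose promoter carries the motif shown above (ENSMUSG00000075304, chr2:70474923-70477729, plus strand), had 29.1 and 32.7 CPM in WT and 30.4 and 23.7 CPM in Haspin-KO. The first Haspin-KO library lay between the WT libraries and the second below them, and the log2 fold change was -0.19 (95% interval -0.49 to 0.12, edgeR adjusted p = 0.468). It moved between -0.38 without Haspin-KO replicate 1 and -0.023 without Haspin-KO replicate 2. Nkd1 (ENSMUSG00000031661, chr8:88521354-88594884, plus strand), an inhibitor that binds Dishevelled, had 106 and 77 counts in WT and 55 and 55 counts in Haspin-KO, or 4.85, 4.44, 3.83 and 3.85 CPM. Both Haspin-KO libraries were lower, with a log2 fold change of -0.28 (95% interval -0.77 to 0.22, edgeR adjusted p = 0.505). The log2 fold changes of the 3 were under 0, and 0 of the 3 passed the test. Within a library, the FPKM of Axin1 over that of Axin2 was 1.48 and 1.27 in WT and 1.65 and 1.86 in Haspin-KO. These groups did not overlap, as for 25.3% (higher) and 26.9% (lower) of all genes by CPM. The ratio uses the same Axin2 values as above, and the log2 fold change of Axin1 was -0.059, so it is not a separate result.

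Of the 17 other Wnt feedback and direct target genes, all 17 were tested and 2 were called, both lower in Haspin-KO, beside 1.51% of all genes called lower. The median log2 fold change of the list was -0.092, with a range from -2.62 to 0.52, and 8 of the 17 were above 0 and 9 below. Cdx1, a caudal-type homeobox gene that responds to Wnt, had 81.8 and 73.3 CPM in WT and 53.9 and 46.2 CPM in Haspin-KO. It fell 1.55-fold in Haspin-KO, a log2 fold change of -0.63 (SE 0.10, edgeR adjusted p = 0.0172), from 660 to 1788 counts per library. Over the same 11 alternatives the adjusted p ran from 3.97e-06 to 0.127, and the call was lost without WT replicate 1 (-0.55, adjusted p = 0.0932) and with limma on FPKM. Cd44, a cell surface receptor for hyaluronan, had 161 and 96 counts in WT and 25 and 5 counts in Haspin-KO, or 7.37, 5.54, 1.74 and 0.350 CPM. It fell 6.15-fold, a log2 fold change of -2.62 (SE 0.46, edgeR adjusted p = 0.0216), and was the 1 DEG among the 17. Its fold change moved between -4.18 and -1.90 as libraries were left out, with -4.18 without Haspin-KO replicate 1. Over 10 of them (it was not in the fit with at least 10 counts in every library) its adjusted p ran from 2.98e-15 to 0.179, and the call was lost without WT replicate 1 (adjusted p = 0.0992), without WT replicate 2 (adjusted p = 0.0577) and with limma on FPKM. T (Brachyury), the mesoderm gene with the motif shown above, had 120 and 151 counts in WT and 57 and 58 counts in Haspin-KO, or 5.49, 8.71, 3.97 and 4.06 CPM. Its log2 fold change of -0.81 (SE 0.26, edgeR adjusted p = 0.123) did not pass the test, and it moved to -0.45 without WT replicate 2 and to -1.12 without WT replicate 1. The remaining 14 targets, which include Ccnd1, Znrf3, Notum and Lgr5, overlapped between the groups, as did 7437 of the 15580 genes tested. Some had few counts, such as Lgr5 with 2 to 11 counts per library (SE 0.71), so overlap there does not show a lack of change. Limma on FPKM called 0 of all genes, Haspin included, so the calls of Cdx1 and Cd44 lost there do not tell about these genes.

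**Figure D4:**
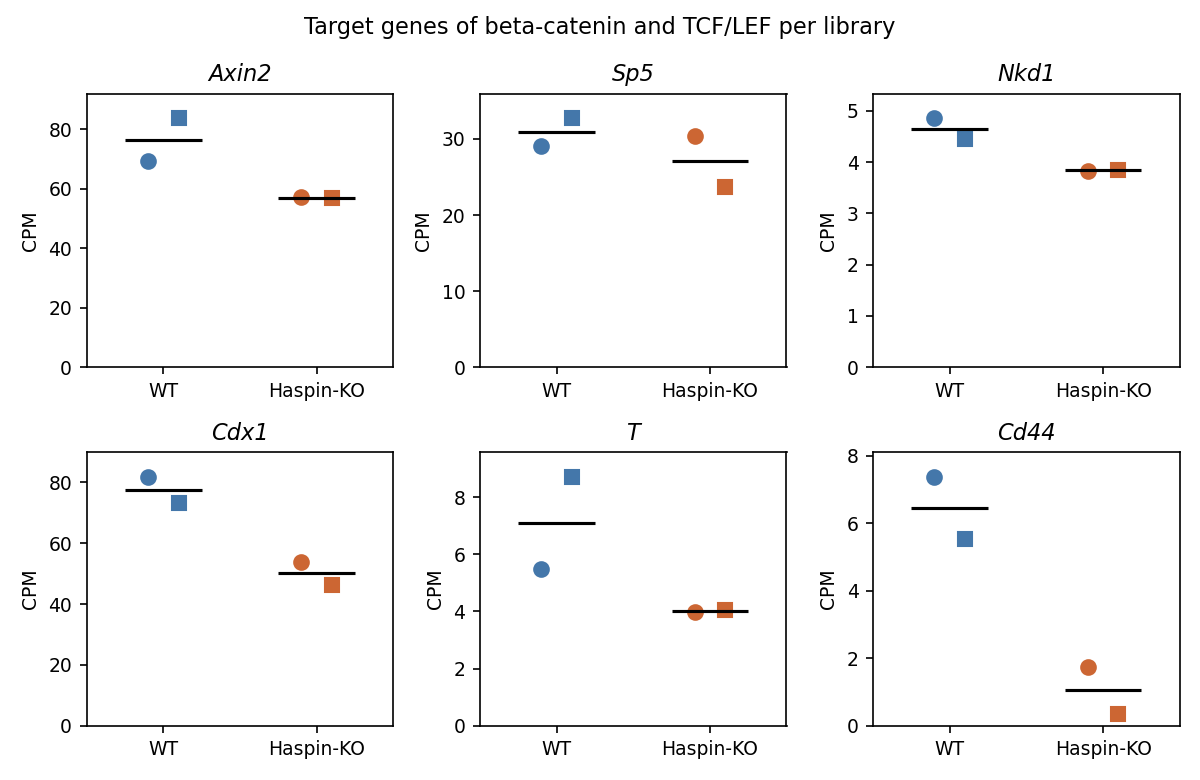
CPM per library (axis from 0) of Axin2, Sp5, Nkd1, Cdx1, T and Cd44, with a line at the group mean, circles for replicate 1 and squares for replicate 2. Haspin-KO points lie below all WT points for Axin2, Nkd1, Cdx1, T and Cd44, while for Sp5 the Haspin-KO values of 30.4 and 23.7 CPM span the lower WT value.

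The fibroblast marker sum moved with Axin2, Nkd1, Cdx1, Cd44 and T, in that all were lower in Haspin-KO. Within WT, replicate 1 had the higher fibroblast sum (237.9 against 180.9 CPM) and also the higher level of Cdx1, Cd44 and Nkd1, but the lower level of Axin2 and T. The genes of the list with the highest mean CPM were Acta2, with 55.6 and 41.3 CPM in WT and 3.06 and 5.95 CPM in Haspin-KO, Col1a1, with 48.7 and 33.2 CPM in WT and 1.67 and 1.68 CPM in Haspin-KO, and Fbn1, with 21.5 and 19.4 CPM in WT and 17.4 and 20.7 CPM in Haspin-KO. Acta2 and Col1a1 were called lower, and Fbn1 was not (log2 fold change -0.10, edgeR adjusted p = 0.709). The part of fibroblast RNA in the levels of these targets was not tested, nor was that of the 2-cell-like markers, which were higher in Haspin-KO. In bulk RNA, fewer cells of a type and less RNA per cell cannot be told apart.

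Over all 5 lists of other pathway genes, 64 of 65 genes were tested, with a median log2 fold change of 0.026. At adjusted p under 0.05, 0 were called higher and 2 lower, beside 2.50% of all genes in either direction. At that share, 0 calls in a list of 5 to 19 genes tell little about the list. Both Haspin-KO libraries lay above both WT libraries for 12 of the 64 genes and below them for 12, beside 25.3% and 26.9% of all genes, and 40 overlapped.

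**Figure D5:**
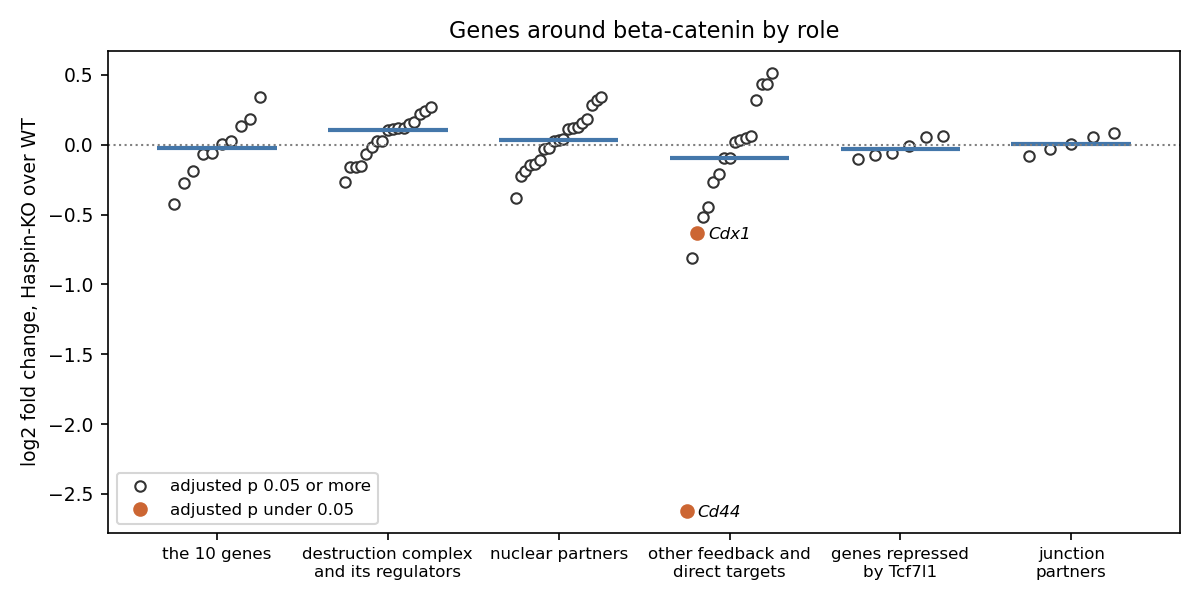
Log2 fold change (Haspin-KO over WT) of each gene by list, with filled points for adjusted p under 0.05, a blue line at the list's median and a dotted line at the median of all genes tested (-0.0039). The filled points are Cdx1 at -0.63 and Cd44 at -2.62, both among the other feedback and direct target genes, and the points of the remaining lists lie between -0.42 and 0.34.

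The deposited annotation lists 9 of the 10 members, all but Sp5, in the KEGG Wnt signaling pathway. In the same coordinates, 9 of the 10 overlap another annotated gene, again all but Sp5. The overlapping genes had at most 46 counts in a library, reached by Gm37969 on the strand of Tcf7l1, followed by Ulk4 with 21 to 42 counts on the strand opposite to Ctnnb1. Whether the counting used strand is not given in the sources used here, so reads in these overlaps cannot be assigned with certainty. Counts per gene do not show how many such reads there were.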

How the data were processed

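Transcripts were measured in 4 RNA-seq libraries of E14 mESCs (2 WT, 2 Haspin-KO) made with a SMARTER mRNA kit, and groups were taken from the genotype in the sample labels. The authors used Cutadapt (v1.9.1) for trimming and Hisat2 (v2.0.1) for mapping to mm10, and the submitters' processing notes list HTSeq (0.6.1). The authors deposited raw counts per gene, without normalization, and FPKM values, which equal counts per kilobase of exonic length and per library total in 100% of the values within rounding. Counts were tested with edgeR (4.0.16) in R (4.3.3), by the quasi-likelihood test after filterByExpr and TMM scaling, over 15580 genes and all 4 libraries. Genes were called at a Benjamini-Hochberg adjusted p under 0.05, and DEGs also had a fold change over 2. CPM use TMM-scaled library sizes, and SE and 95% intervals come from the same fit. FPKM served to compare genes within a library.

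Alternatives were DESeq2 (1.42.0), DESeq2 size factors, library totals, no filter, at least 10 counts in every library, limma (3.58.1) on log2(FPKM + 0.1) or log2(FPKM + 1) (minimum FPKM 0.5 in 2 or more libraries), a replicate term, an adjusted p under 0.1, and each library left out in turn, where a group left with 1 library is assumed to vary like the other. The pipeline was tested on simulated data. Named genes were the 10 members, Haspin, and in each pathway list the genes called and otherwise those with the smallest p, up to 3 a list, and in each marker list up to 3 of the highest mean. The members and lists were chosen with earlier results of these data known. Promoter sequences came from RefSeq (GRCm38.p6), and 99.4% of 55141 genes of the table had the same coordinates in GENCODE M21 (GRCm38). Replicates of a group differed by more than sampling noise (chi-square over its degrees of freedom 7.06 in WT and 5.38 in Haspin-KO).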

Additional observations from a re-analysis of the deposited data

How the results depend on the processing

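With 2 libraries a group, the spread rests on few values, and genes with few counts such as Lef1 and Nkd1 had wide intervals. For the 10 members, 106 of 118 alternative values kept their direction and their side of the threshold. In the fit reported, 51 genes were DEGs higher and 78 lower, 390 passed adjusted p alone, and 0 members and 2 pathway genes were called. DESeq2 gave 44 lower DEGs and called 1 member (Axin2). Without the filter there were 125 higher and 140 lower DEGs, 1172 genes at adjusted p alone, 1 member (Axin2) and 4 pathway genes (Cd44, Cdx1, T and Tbl1xr1), and log2 fold changes turned to -0.0032 for Ctnnb1 and -0.023 for Lef1. A minimum of 10 counts gave 36 lower DEGs and 1 pathway gene (Cdx1), since Cd44 was not in that fit. Limma on log2(FPKM + 0.1) or log2(FPKM + 1) called 0 genes in either direction, 0 at adjusted p alone and 0 pathway genes, although 2736 and 2772 genes had an unadjusted p under 0.05. An adjusted p under 0.1 gave 111 higher DEGs, 1051 genes at adjusted p alone, 1 member (Axin2) and 4 pathway genes. Leaving out each library in turn gave 17 to 157 higher and 37 to 150 lower DEGs, 96 to 878 genes at adjusted p alone, 0 to 1 members and 0 to 5 pathway genes (0 without WT replicate 1, 1 without WT replicate 2, 5 with Myc, Crebbp and Rnf43 without Haspin-KO replicate 1, 3 without Haspin-KO replicate 2), and crossed 0 for Axin1 (-0.15 to 0.023), Lef1 (-0.027 to 0.039) and Tcf7 (-0.14 to 0.012). From raw counts, the Lef1 share differed by -0.0565 percentage points in place of -0.0212. The libraries share only a replicate number. With the replicate block there were 240 higher and 167 lower DEGs, 3514 genes at adjusted p alone, 2 members (Axin2 at -0.42, adjusted p = 5.27e-07, and Apc at 0.19, adjusted p = 0.0138) and 14 pathway genes, among them Myc at 0.30 (adjusted p = 0.0178). The differences between replicates correlated across genes with r = 0.289 between the groups, and the fit with the block had 1 residual degree of freedom. Its prior degrees of freedom were infinite, so the spread was shared over genes in place of a spread per gene. Its common dispersion was 0.0019, beside 0.0072 in the fit reported, and its small p-values rest on this. The causes of these changes were not tested.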

Other observations

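Myc, a cell growth regulator that is both a Wnt target and a gene that responds to culture conditions, differed more between replicate numbers than between genotypes, and was singled out after its values were seen. It had 13.7 and 41.4 CPM in WT and 16.5 and 51.5 CPM in Haspin-KO, so that replicate 2 was 3.01 times replicate 1 in WT and 3.12 times in Haspin-KO. Its log2 fold change between genotypes was 0.32 (SE 0.52, edgeR adjusted p = 0.771), although Haspin-KO was above WT within each replicate number. Leaving out a library turned this value to -0.73 without Haspin-KO replicate 2 and -0.29 without WT replicate 1, and to 0.92 with a call (adjusted p = 7.32e-08) without Haspin-KO replicate 1 and 1.31 without WT replicate 2 (adjusted p = 0.254). The adjusted p over the alternatives without a replicate term ran from that call to 0.941. Eomes, a mesendoderm factor, had the same order, with replicate 2 at 1.82 and 1.77 times replicate 1. Over all genes tested, 16 (0.103%) had replicate 2 more than 2-fold above replicate 1 in both groups and 10 (0.0642%) more than 2-fold below. For the 10 members, the ratio of replicate 2 to replicate 1 ran from 0.691 (Tcf7l2 in Haspin-KO) to 1.21 (Axin2 in WT).

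The marker lists of other lineages gave few differences. The 7 primitive endoderm markers had sums of 151.1 and 156.5 CPM in the WT libraries and of 138.8 and 128.2 CPM in the Haspin-KO libraries. Of the 5 tested, 0 were called, beside 2.50% of all genes in either direction. At an unadjusted p under 0.05, 1 was lower, beside 20.8% of all genes in either direction. The 5 mesendoderm markers, which share Foxa2 with that list, had sums of 32.2 and 53.5 CPM in the WT libraries and of 30.4 and 48.7 CPM in the Haspin-KO libraries. Of these, 0 of the 3 tested were called and 0 had an unadjusted p under 0.05, beside the same shares of all genes.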
